A study of Bubalus bubalis with 12 samples.

Results

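OXA1L, TMEM177 and IBA57 are 3 nuclear genes whose products assemble parts of the mitochondrial respiratory chain and of its iron-sulfur proteins. Their members on the array were the 8 probes, out of 177440 that are not controls, whose gene name in the files is one of these symbols: 3 for OXA1L, 3 for TMEM177 and 2 for IBA57. All 8 probes passed the filter on dim spots, and the 3 genes are among the 6805 that kept at least 2 probes. All 3 symbols have an entry in the RefSeq gene table of water buffalo.

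The series profiled sperm from cryopreserved semen of water buffalo bulls (Bubalus bubalis) by ChIP-on-chip. In this method, DNA pulled down with an antibody and input DNA of the same bull, taken without the pull-down, compete for the probes of one array. The bulls were labelled subfertile (SF1, SF4 and SF5) or high-fertile (HF2, HF3 and HF5), and each gave 1 array for the histone mark H3K4me2 and 1 for H3K27me3, so that 12 arrays came from 6 bulls. The dyes were never swapped: ChIP DNA always carried Cy5 and input DNA Cy3. The labels give the fertility class and no measure behind it, and 3 bulls stand for each class.

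H3K4me2, the dimethyl form of lysine 4 of histone H3, is found at promoters and enhancers that are active or ready for use. H3K27me3, trimethylation of lysine 27 on the same histone, is written by Polycomb repressive complexes at silenced genes. Sperm chromatin is mostly packed by protamines, and the histones that remain carry such marks at a limited number of sites. OXA1L, the mammalian counterpart of yeast Oxa1, inserts newly made proteins into the mitochondrial inner membrane. TMEM177 is an inner membrane protein that, in human cells, takes part in the biogenesis of a cytochrome c oxidase subunit encoded in mitochondrial DNA. IBA57 acts with ISCA1 and ISCA2 to build the iron-sulfur clusters that many mitochondrial enzymes need.

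The probes were designed on cattle sequence, and their positions are those of the cattle build HGSC Btau_3.1. They are shown because each gene's value rests on 1 short stretch of DNA, which the overlap of its probes makes visible: capitals mark the letters that all probes of a gene have in common, in the order of the coordinates. The 3 OXA1L probes lie in a CpG island at chr10:22340942-22341037, span 96 bases and share 24.
OXA1L CpG island probe starting at 22340942: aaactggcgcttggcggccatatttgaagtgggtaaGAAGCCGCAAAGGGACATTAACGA
OXA1L CpG island probe starting at 22340950: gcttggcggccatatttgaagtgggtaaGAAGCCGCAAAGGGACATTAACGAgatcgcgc
OXA1L CpG island probe starting at 22340978: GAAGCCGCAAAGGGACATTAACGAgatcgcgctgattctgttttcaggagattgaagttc
The TMEM177 probes, 1 listed by the files as coding sequence and 2 as CpG island, lie at chr2:74971517-74971582, span 66 bases and share 54.
TMEM177 coding sequence probe starting at 74971517: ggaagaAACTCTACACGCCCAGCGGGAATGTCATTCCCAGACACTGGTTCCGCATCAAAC
TMEM177 CpG island probe starting at 74971519: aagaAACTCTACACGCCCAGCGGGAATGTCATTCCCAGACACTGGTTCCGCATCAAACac
TMEM177 CpG island probe starting at 74971523: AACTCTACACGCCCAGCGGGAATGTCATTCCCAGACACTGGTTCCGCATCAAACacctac
The IBA57 probes, 1 CpG island and 1 coding sequence, lie at chr7:2883765-2883832, span 68 bases and share 52; for the CpG island probe the files give the island (2883705 to 2884378), and its place within it follows from its overlap with the other probe.
IBA57 CpG island probe starting at 2883765: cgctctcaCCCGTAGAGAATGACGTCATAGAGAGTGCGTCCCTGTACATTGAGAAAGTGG
IBA57 coding sequence probe starting at 2883773: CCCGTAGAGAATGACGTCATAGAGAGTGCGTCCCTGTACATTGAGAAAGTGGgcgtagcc

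In base composition the 8 probes were ordinary for the array. They held 46.7% to 53.3% G and C, against a median of 51.7% over all kept probes, and 3 to 5 CpG dinucleotides, against a median of 3. Because the probes of a gene overlap, they are repeated readings of 1 site and no replicates.

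Array signals overlapped between the groups. The median processed signal ranged from 622 to 688 in the ChIP colour on subfertile arrays and from 658 to 742 on high-fertile arrays, and from 645 to 815 and from 672 to 808 in the input colour. All spots of the 3 genes were well above background in both colours on all 12 arrays, and none was saturated or marked as an outlier. Signals and ratios below are on the log2 scale with each array's median set to 0, so a value above 0 lies above the middle of its array and gives no absolute amount of mark. Genes that mark sperm, leukocytes and epithelium gave a median H3K4me2 ratio per bull of -0.18 to 0.22 in subfertile and -0.76 to 0.41 in high-fertile bulls for 4 of 15 listed sperm genes, of -0.46 to 0.56 and -0.38 to 0.00 for 4 of 10 leukocyte genes, and of 0.03 to 0.81 and -0.16 to 0.38 for 6 of 10 epithelial genes. These are chromatin values and do not count cells, so the labelled cell type could not be checked from them, and the part of the cell make-up in the results was not tested.

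The question behind the series is whether the marks differ between bulls of low and high fertility. OXA1L gave the second largest of 6805 differences in H3K27me3, and TMEM177 the seventh largest in H3K4me2, while IBA57 differed little between the groups in either mark. OXA1L was chosen by its H3K27me3 difference, TMEM177 by its H3K4me2 difference and IBA57, as far as can be told, by an H3K4me2 ratio above its H3K27me3 ratio in all bulls. Values in the contrasts that chose a gene are therefore given without a test. Across all genes, limma called 0 of 6805 at an adjusted p of 0.05 in either mark, with 198 (2.91%) at an unadjusted p under 0.05 in H3K4me2 and 277 (4.07%) in H3K27me3. With each colour taken alone it also called 0 genes, with 241 (3.54%) at an unadjusted p under 0.05 in the input signal, 119 (1.75%) in the H3K4me2 ChIP signal and 271 (3.98%) in the H3K27me3 ChIP signal.

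**Figure D1:**
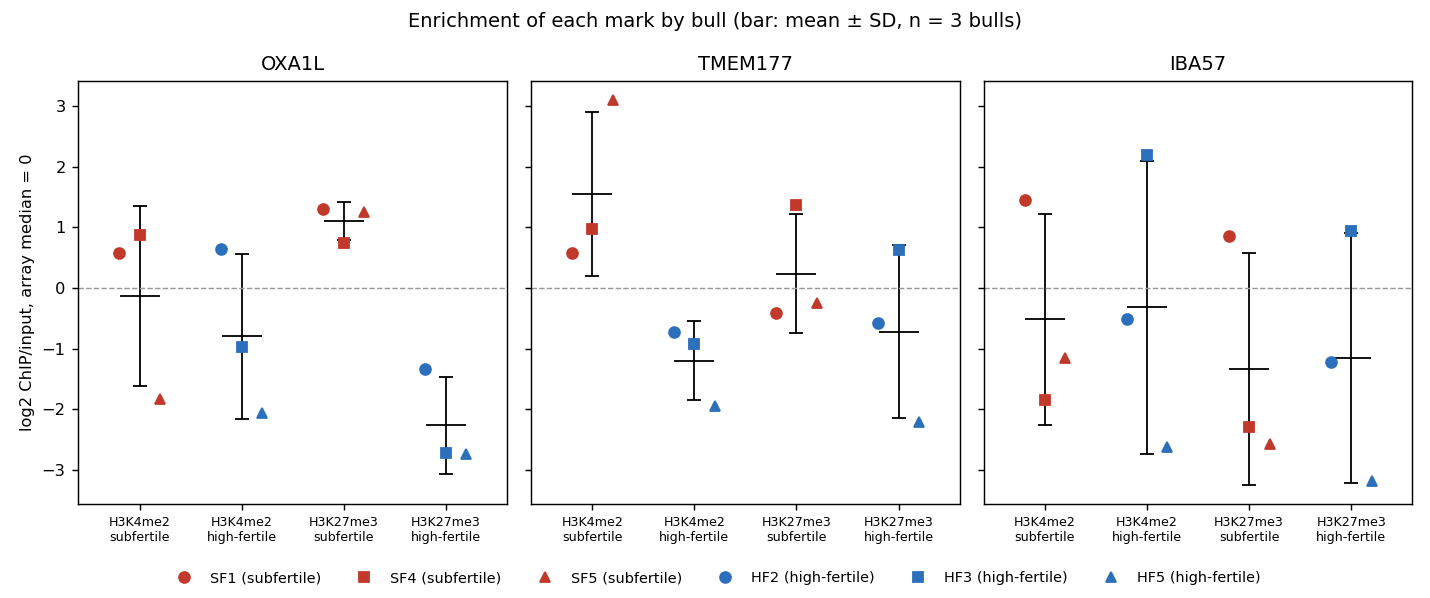
Log2 ratio of ChIP over input for OXA1L, TMEM177 and IBA57, with the array median at 0; each point is 1 bull, red for subfertile and blue for high-fertile, and the bars are mean ± SD of 3 bulls. Groups stand apart for OXA1L in H3K27me3 and for TMEM177 in H3K4me2, and overlap in the other 4 pairs.

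OXA1L was set apart by H3K27me3, with more ChIP signal and less input signal in the subfertile bulls. Its H3K27me3 ratios were 1.30, 0.74 and 1.26 in SF1, SF4 and SF5, against -1.34, -2.72 and -2.73 in HF2, HF3 and HF5. All 3 subfertile bulls lay above all 3 high-fertile bulls and above the middle of their own arrays, and all 3 high-fertile bulls lay below it. The means were 1.10 ± 0.31 in subfertile and -2.27 ± 0.80 in high-fertile bulls (SD, n = 3 each), a difference of 3.37 or 10.3-fold. Groups that did not overlap with subfertile bulls higher were found at 4.01% of all genes in this comparison, and the median gene differed by 0.32 in size; since this contrast chose OXA1L, nothing is read from that. Ranked among the genes of each array, OXA1L stood at the 96.6th, 90.9th and 96.7th percentile in SF1, SF4 and SF5, against the 1.09th, 0.54th and 0.29th in HF2, HF3 and HF5.

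The 2 channels of OXA1L differed between the groups in opposite directions. The mean H3K27me3 ChIP intensity of its probes was 913, 471 and 1270 in the subfertile bulls, against 257, 251 and 203 in the high-fertile bulls. The input intensity on the same arrays was 453, 266 and 520 in the subfertile bulls, against 646, 1507 and 1203 in the high-fertile bulls. Neither channel overlapped between the groups: the highest ChIP value of a high-fertile bull was below the lowest of a subfertile bull, and the reverse held for input. With each array's median at 0, the ChIP signal averaged 0.29 ± 0.76 in subfertile and -1.71 ± 0.21 in high-fertile bulls, a difference of 1.99, and the input signal, averaged over the 2 arrays of a bull, -0.86 ± 0.46 and 0.53 ± 0.59, a difference of -1.40. The share of all genes without overlap was 4.81% with subfertile bulls higher for this ChIP signal, and 3.17% with subfertile bulls lower for input. Both signals are part of the ratio that chose OXA1L, so nothing is read from this. When every bull's input was replaced by the average over the 6 bulls, the difference in H3K27me3 was 1.96.

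The 2 input readings of a bull, 1 from each mark's array, were close: for OXA1L they differed by at most 0.12, against an SD of 0.90 over the 6 bulls. The difference between the groups in input was thus measured on 2 arrays per bull. Those arrays share the bull, the slide and its input DNA, so they count as 1 reading.

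Each OXA1L probe gave the same picture in H3K27me3. The differences were 2.60 at the probe starting at 22340942, 3.54 at 22340950 and 3.96 at 22340978, and the groups did not overlap at any of them. The mean of these probes is the value that chose OXA1L, so their likeness is no further support. The probe at 22340978 lies highest in coordinate and shares the fewest letters with the others. Its input signal on the H3K27me3 arrays was -2.09 in SF1, -1.70 in SF4 and -0.39 in SF5, against -0.25 in HF2, 1.02 in HF3 and 0.53 in HF5. In SF1 it stood far below the other probes of the gene, which read -0.40 and -0.06 there.

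In H3K4me2 the OXA1L groups overlapped. The ratios were 0.57, 0.87 and -1.84 in SF1, SF4 and SF5, against 0.65, -0.98 and -2.06 in HF2, HF3 and HF5. One bull of each group, SF5 and HF5, lay far below the middle of its array, and HF2 lay between the 2 upper subfertile bulls. The means were -0.13 ± 1.48 in subfertile and -0.80 ± 1.36 in high-fertile bulls (SD, n = 3 each), and the difference of 0.67 had a 95% confidence interval from -1.34 to 2.67 (limma, adjusted p = 1.00 over 6805 genes). This ratio has the input DNA in common with the H3K27me3 ratio that chose the gene. The H3K4me2 ChIP signal taken alone had the opposite sign, -0.96 ± 1.03 in subfertile and -0.17 ± 0.93 in high-fertile bulls, a difference of -0.78 with overlapping groups.

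TMEM177 stood apart in H3K4me2, again with the input lower in the subfertile bulls. Its H3K4me2 ratios were 0.58, 0.97 and 3.1 in SF1, SF4 and SF5, against -0.73, -0.93 and -1.94 in HF2, HF3 and HF5. All subfertile bulls lay above the middle of their arrays and all high-fertile bulls below, and SF5 stood well above the other 2 subfertile bulls. The means were 1.55 ± 1.35 in subfertile and -1.20 ± 0.65 in high-fertile bulls (SD, n = 3 each), a difference of 2.75 or 6.72-fold. Without SF5 the difference was 1.97, the smallest value when any 1 bull was left out. Ranked among the genes of each array, TMEM177 stood at percentiles 83.2, 95.6 and 98.8 in SF1, SF4 and SF5. In HF2, HF3 and HF5 it stood at percentiles 6.7, 12.1 and 1.7. By rank SF5 was thus close to SF4. Groups without overlap and with subfertile bulls higher made up 3.1% of all genes in this comparison, and the median gene differed by 0.33 in size; this contrast chose TMEM177, so nothing is read from its place among them.

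The channels of TMEM177 were also taken apart on the H3K4me2 arrays. The ChIP intensity was 661, 811 and 4053 in the subfertile bulls, against 728, 317 and 236 in the high-fertile bulls, and the input intensity 466, 412 and 534 against 1223, 626 and 952. The ChIP intensities overlapped, with HF2 above SF1, and the input intensities did not. The reading of 4053 in SF5 was the highest ChIP intensity of the 3 genes on any array. After setting the array medians to 0, the ChIP signal averaged 0.99 ± 1.36 in subfertile and -0.86 ± 0.76 in high-fertile bulls, a difference of 1.85, with HF2 at -0.03 just below SF1 at 0.09; 3.7% of all genes had such groups without overlap. Averaged over both arrays of a bull, the input signal was -0.65, -0.63 and -0.68 in SF1, SF4 and SF5, against 0.70, -0.26 and 0.48 in HF2, HF3 and HF5. The subfertile bulls lay close together in this mean input, with an SD of 0.03, and all lay below the high-fertile bulls, a difference of -0.96. Such groups without overlap in input, with subfertile bulls lower, made up 3.17% of all genes. Both signals are part of the ratio that chose TMEM177, so nothing is read from this.

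The 3 TMEM177 probes, which have most of their letters in common, differed little from each other. Their H3K4me2 differences were 2.77 at the coding sequence probe and 2.83 and 2.64 at the CpG island probes, each without overlap of the groups. The mean of these probes is the value that chose TMEM177, so their likeness is no further support.

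In H3K27me3 the TMEM177 groups overlapped. The ratios were -0.42, 1.37 and -0.24 in SF1, SF4 and SF5, against -0.57, 0.64 and -2.22 in HF2, HF3 and HF5. SF4 was the highest bull and HF5 the lowest, with the other 4 bulls between them. The means were 0.23 ± 0.98 in subfertile and -0.72 ± 1.43 in high-fertile bulls (SD, n = 3 each), and the difference of 0.95 had a 95% confidence interval from -0.83 to 2.74 (limma, adjusted p = 1.00 over 6805 genes). The input DNA is shared with the contrast that chose the gene. The H3K27me3 ChIP signal alone differed by -0.10, with -0.42 ± 1.02 in subfertile and -0.33 ± 1.21 in high-fertile bulls.

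**Figure D2:**
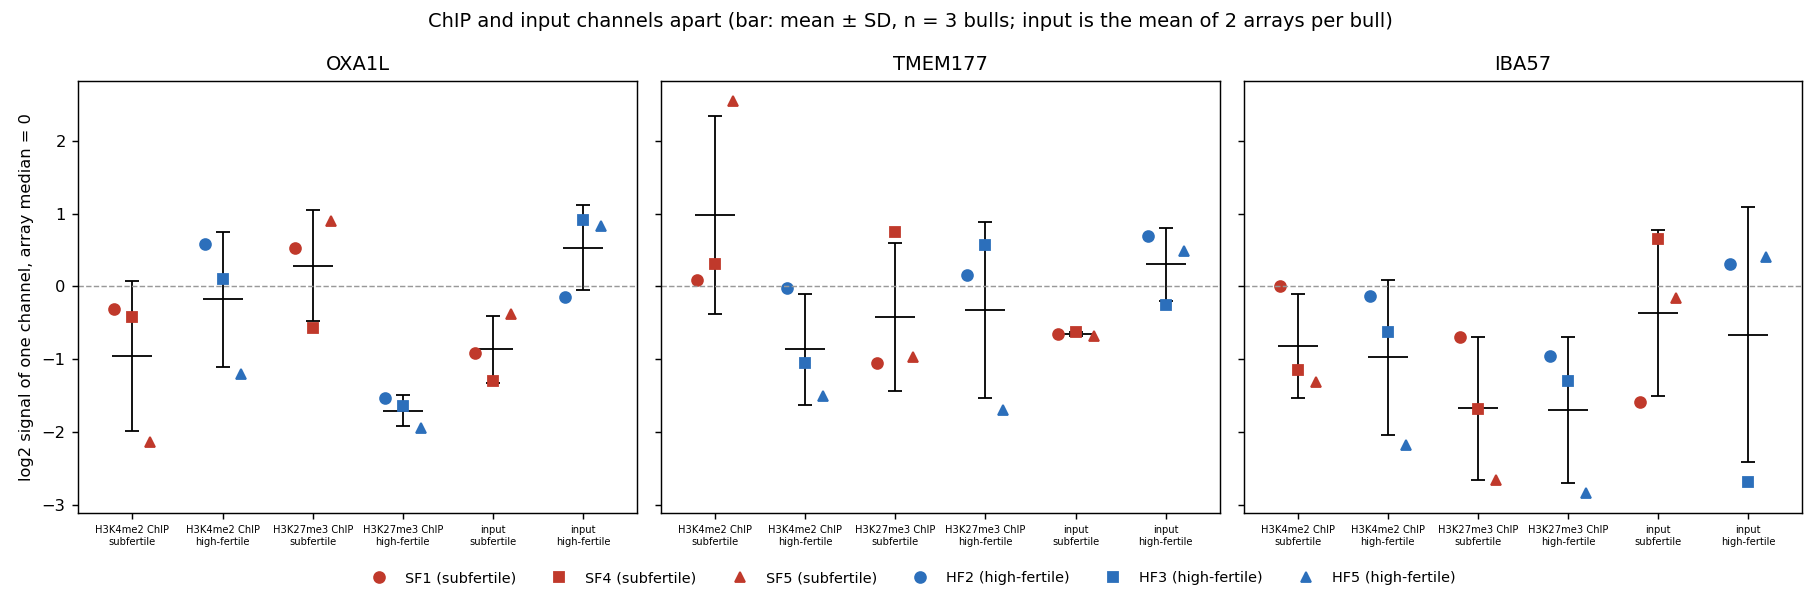
Log2 signal of the ChIP colour on the H3K4me2 and H3K27me3 arrays and of the input colour, array median at 0, for each gene; points are bulls, red for subfertile and blue for high-fertile, and bars are mean ± SD of 3 bulls. Input of OXA1L and of TMEM177 is lower in all 3 subfertile bulls, and IBA57 input is lowest in HF3 at -2.69.

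IBA57 varied widely from bull to bull in both groups, with no separation by fertility. The H3K4me2 ratios were 1.46, -1.84 and -1.16 in SF1, SF4 and SF5, against -0.50, 2.19 and -2.63 in HF2, HF3 and HF5. The H3K27me3 ratios were 0.87, -2.28 and -2.58 in the subfertile bulls, against -1.23, 0.95 and -3.18 in the high-fertile bulls. SF1 and HF3 lay above the middle of their arrays in both marks, and the other 4 bulls lay below it in both. The subfertile mean was -0.51 ± 1.74 and the high-fertile mean -0.31 ± 2.41 for H3K4me2, and -1.33 ± 1.91 and -1.15 ± 2.06 for H3K27me3 (SD, n = 3 each). The differences of -0.20 and -0.18 were far smaller than these SDs, and their 95% confidence intervals, -3.00 to 2.60 and -2.89 to 2.53, leave room for differences in either direction.

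The bulls with high IBA57 ratios were those with little input signal at its probes. The ratio is ChIP over input, so low input raises it by construction. The input signal was -1.59, 0.65 and -0.16 in SF1, SF4 and SF5, against 0.31, -2.69 and 0.40 in HF2, HF3 and HF5. In intensity on the H3K4me2 arrays, HF3 read 98.5 and SF1 243.5, while the other 4 bulls lay between 703.5 and 1045. The ChIP signal spread less: for H3K4me2 it was 0.01, -1.15 and -1.31 in the subfertile bulls, against -0.13, -0.62 and -2.17 in the high-fertile bulls, and for H3K27me3 -0.69, -1.68 and -2.66 against -0.95, -1.30 and -2.84. SF5 in its group and HF5 in its own were lowest in ChIP signal in both marks. In HF3 the 2 probes disagreed most: the coding sequence probe had an input signal of -2.78 on the H3K4me2 array and -1.61 on the H3K27me3 array, while the CpG island probe read -3.12 and -3.25.

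Only 1 slide held a bull of each group, with SF1 and HF5 on it, so elsewhere slide and bull cannot be told apart. Within that slide, OXA1L differed by 4.04 in H3K27me3 and 2.63 in H3K4me2, SF1 minus HF5, and TMEM177 by 2.52 in H3K4me2 and 1.80 in H3K27me3. These have the signs of the values over all bulls, but SF1 and HF5 are among those bulls, so this is no separate support. For OXA1L in H3K27me3 and TMEM177 in H3K4me2 the groups did not overlap, which fixes the sign in advance. For IBA57 the same pair differed by 4.09 in H3K4me2 and 4.04 in H3K27me3, because SF1 was its highest subfertile bull and HF5 its lowest bull, and the sign is opposite to that over all bulls. With slide as a random block over all 12 arrays, an alternative added after seeing the data, the H3K27me3 difference of OXA1L was 3.87, the H3K4me2 difference of TMEM177 was 2.87, and the IBA57 differences were 1.43 and 1.45.

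**Figure D3:**
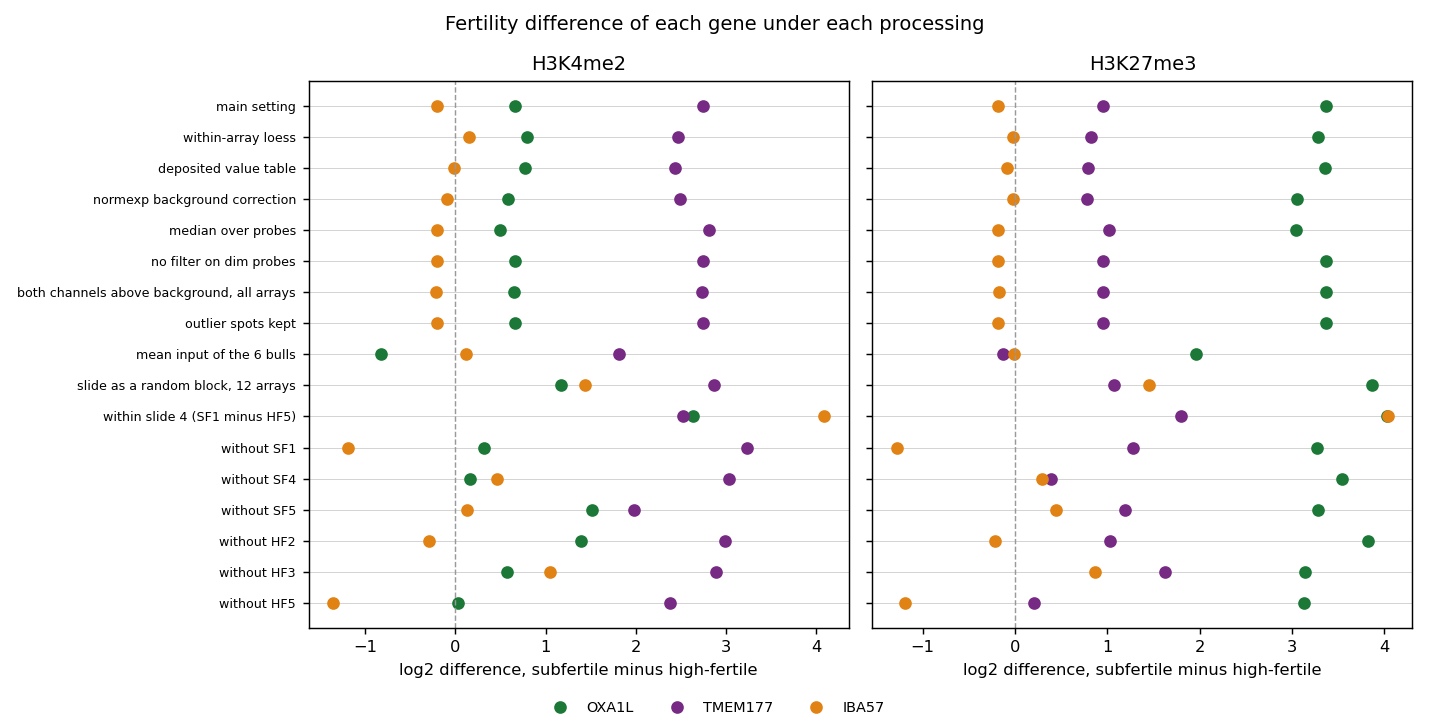
Fertility difference of each gene, subfertile minus high-fertile on the log2 scale, for H3K4me2 on the left and H3K27me3 on the right; each line of points is 1 way of processing the arrays or 1 bull left out. OXA1L in H3K27me3 stays between 1.96 and 4.04 and TMEM177 in H3K4me2 between 1.81 and 3.23, while the values of IBA57 lie on both sides of 0.

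The 2 marks were next compared within each bull. IBA57 had the higher ratio in H3K4me2 in 6 of 6 bulls, by 0.59, 0.44 and 1.42 in SF1, SF4 and SF5 and by 0.72, 1.24 and 0.55 in HF2, HF3 and HF5. The step between marks averaged 0.83 with an SD of 0.40 over 6 bulls. A bull's input DNA enters both of its ratios and largely cancels in the step. That the step spread less than the level of either mark is thus partly arithmetic, and nothing is read from it. One sign in all 6 bulls with H3K4me2 higher was seen at 2.44% of all genes; as this is taken to be what chose IBA57, it is a description. The ChIP signal alone gave 0.79 ± 0.29 (SD, n = 6), higher for H3K4me2 in 6 of 6 bulls. Both arrays of a bull carry the same input DNA, so this largely repeats the ratio step and is no separate support. No share over all genes is given for it. The ratio step was 0.82 ± 0.53 in subfertile and 0.84 ± 0.36 in high-fertile bulls (SD, n = 3 each), a difference of -0.02.

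OXA1L and TMEM177 had no common step between the marks, and theirs differed between the groups in opposite directions. For OXA1L, H3K4me2 minus H3K27me3 was -0.73, 0.12 and -3.10 in SF1, SF4 and SF5, against 1.99, 1.74 and 0.68 in HF2, HF3 and HF5. All high-fertile bulls had the higher ratio in H3K4me2, and SF5 by far the lower one. For TMEM177 it was 1.00, -0.39 and 3.34 in the subfertile bulls, against -0.16, -1.56 and 0.28 in the high-fertile bulls. The groups overlapped there, and SF5 again stood highest. The subfertile mean of the step was -1.23 ± 1.67 and the high-fertile mean 1.47 ± 0.70 for OXA1L, a difference of -2.70, while for TMEM177 they were 1.32 ± 1.89 and -0.48 ± 0.96, a difference of 1.80 (SD, n = 3 each). These differences hold the contrasts that chose the genes and are given without a test. Over all genes, limma called 0 of 6805 for such a difference between marks, with 45 (0.661%) at an unadjusted p under 0.05. It called 0 for the step itself, with 41 (0.602%). These counts are from a fit that ignores that both marks came from the same bulls. With bull as a block, limma again called 0 for each, with 246 and 260 at an unadjusted p under 0.05.

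**Figure D4:**
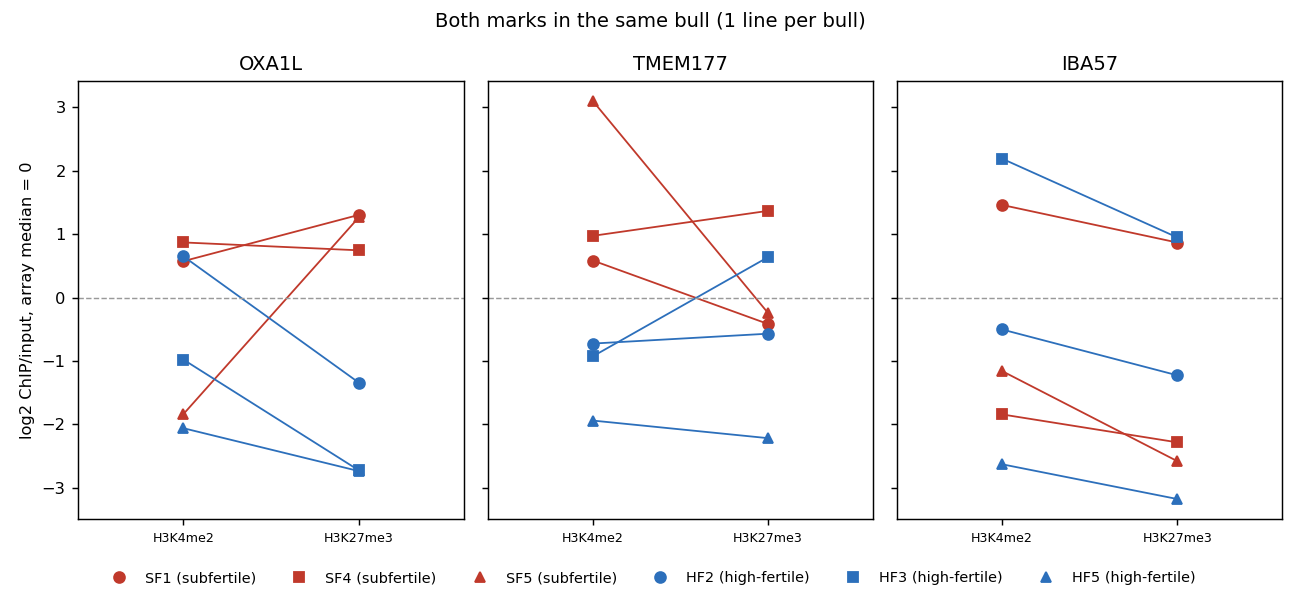
Log2 ratio of ChIP over input in H3K4me2 and H3K27me3, array median at 0, with 1 line per bull, red for subfertile and blue for high-fertile. All 6 lines of IBA57 run down from H3K4me2 to H3K27me3, whereas those of OXA1L and TMEM177 cross.

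Ordered by mean ratio, OXA1L was highest in subfertile H3K27me3 (1.10), then in subfertile H3K4me2 (-0.13), high-fertile H3K4me2 (-0.80) and high-fertile H3K27me3 (-2.27). TMEM177 ran from subfertile H3K4me2 (1.55) over subfertile H3K27me3 (0.23) and high-fertile H3K27me3 (-0.72) to high-fertile H3K4me2 (-1.20). IBA57 ran from high-fertile H3K4me2 (-0.31) over subfertile H3K4me2 (-0.51) and high-fertile H3K27me3 (-1.15) to subfertile H3K27me3 (-1.33). In each of these orders the bulls of neighbouring groups overlapped. Neighbours that are the 2 marks of one fertility group hold the same bulls, whose steps between marks are given above.

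All 3 genes varied more between bulls than the median gene did. The SD of the H3K4me2 ratio over 6 bulls was 1.33 for OXA1L, 1.78 for TMEM177 and 1.89 for IBA57, against 0.64 in the median gene and 1.40 at the 95th percentile of all genes. For H3K27me3 it was 1.92, 1.22 and 1.78 in the same order of genes, against 0.60 and 1.30. For OXA1L and TMEM177 this SD includes the difference between the groups that chose them. In IBA57, which had almost no such difference, the input spread with an SD of 1.43 on the H3K4me2 arrays and the ChIP signal with 0.82, against 0.45 and 0.48 in the median gene.

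The genes with the most similar pattern were found by Pearson r of the ratios over the 12 arrays, which come from 6 bulls and share each bull's slide and input DNA. Nearest to OXA1L were RNPC3, a protein of the minor spliceosome (r = 0.87), GINS1, a subunit of a DNA replication complex (0.87), and DHX29, a helicase of translation initiation (0.87). Nearest to TMEM177 were LRRC58, a gene for a leucine-rich repeat protein (0.93), NRN1, which encodes neuritin (0.93), and HSPA12B, a distant member of a heat shock protein family (0.91). IBA57 was followed most closely by MASTL, a kinase of mitotic entry (0.95), MAD2L2, a subunit of a translesion DNA polymerase (0.95), and a gene listed as APEG3 (0.94). GINS1 differed between the groups by 1.72 in H3K27me3, where OXA1L differed by 3.37, and HSPA12B by 2.13 in H3K4me2, where TMEM177 differed by 2.75. Over 6 bulls, the input signal of OXA1L correlated at 0.93 with that of RNPC3, 0.87 with GINS1 and 0.79 with DHX29. That of IBA57 correlated at 0.93 with MASTL, 0.79 with MAD2L2 and 0.99 with APEG3. That of TMEM177 correlated at 0.58 with LRRC58, at -0.29 with NRN1 and at 0.58 with HSPA12B. The ratios by which these genes were picked hold this input, so high values are partly built in. Among themselves the 3 genes were little alike, with r of 0.20 for OXA1L and TMEM177, 0.10 for OXA1L and IBA57, and 0.14 for TMEM177 and IBA57. On the cattle build the 3 genes lie on different chromosomes. Within 10 kb of their outermost probes, neither OXA1L nor TMEM177 had a probe of another gene.

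OXA1L, TMEM177 and IBA57 were set beside other genes of mitochondrial assembly, 113 genes in 4 lists, of which 51 had enough probes. Their median difference lay close to that of all genes in both marks. In H3K4me2, 29 (56.9%) were higher in subfertile bulls, against 51.8% of all genes, and 22 were lower. Of the 51 genes, 0 passed limma's adjusted p of 0.05 and 1 had an unadjusted p under 0.05. Their median difference was 0.04, against 0.02 over all 6805 genes. In H3K27me3, 28 (54.9%) were higher, against 49.3% of all genes, and 23 were lower. Of the 51 genes, 0 passed and 1 had an unadjusted p under 0.05. The median difference was 0.06, against -0.01 over all genes. The shares of all genes that were higher also apply to the counts in each list below. The groups did not overlap in 1 of the 51 genes for H3K4me2 and in 3 for H3K27me3, or 1.96% and 5.88%, against 6.58% and 8.57% of all genes.

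Around OXA1L, in the list of inner membrane insertion and import, 20 of 34 other genes were measured. Their differences ranged from -1.03 to 0.92 in H3K4me2, with 11 higher and 9 lower, and from -1.06 to 0.73 in H3K27me3, with 12 higher and 8 lower. OXA1L at 0.67 in H3K4me2 lay within that range. Its 3.37 in H3K27me3 lay above the range, as the choice of the gene by that value fixes. TIMM44, which tethers the import motor to the translocase, averaged -0.45 ± 0.31 in subfertile and 0.58 ± 0.50 in high-fertile bulls in H3K4me2, a difference of -1.03 (limma, adjusted p = 1.00). It was the listed gene with an unadjusted p under 0.05 in that mark. COX18, a relative of OXA1L that translocates a cytochrome c oxidase subunit, differed by -0.78 and -0.76 in the 2 marks. GRPEL2, a cofactor of the import chaperone, differed by 0.78 in H3K4me2, and GFER, a sulfhydryl oxidase of the intermembrane space, by -0.72 in H3K27me3.

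Around TMEM177, in the list of cytochrome c oxidase assembly, 9 of 28 other genes were measured. They ranged from -0.78 to 1.26 in H3K4me2, with 4 higher and 5 lower, and from -0.76 to 0.96 in H3K27me3, with 5 higher and 4 lower. TMEM177 at 0.95 in H3K27me3 lay just inside that range; its 2.75 in H3K4me2, the value that chose it, lay above the range by that choice. The highest in H3K4me2 was the copper chaperone gene COX11, at 0.11, 0.04 and 3.78 in SF1, SF4 and SF5, against 0.22, 0.00 and -0.08 in HF2, HF3 and HF5. Of its 6 bulls SF5 stood apart, the bull in which TMEM177 also read highest. COX10, an enzyme in the synthesis of the oxidase's heme, differed by 0.96 in H3K27me3 (limma, adjusted p = 1.00), CCDC56, an early assembly factor, by 0.59 in the same mark, and SCO2, another copper chaperone, by -0.65 in H3K4me2.

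Around IBA57, in the list of iron-sulfur cluster assembly, 14 of 24 other genes were measured. In H3K4me2, 10 were higher and 4 lower, from -0.58 to 1.36. In H3K27me3, 7 were higher and 7 lower, from -0.58 to 0.63. Over all genes, 51.8% were higher in H3K4me2 and 49.3% in H3K27me3, and nothing is read from counts in so short a list. IBA57 lay inside both ranges of the list. ISCU, the scaffold on which clusters are first built, differed by 1.36 in H3K4me2 with the bulls of the groups overlapping and by 0.63 in H3K27me3. Its H3K4me2 ratio was 2.47 in SF5, against -0.53 in SF1 and 0.33 in SF4. NUBP2, a cytosolic assembly factor, differed by 0.76 in H3K4me2, and NARFL, of the same cytosolic pathway, by -0.38 in H3K27me3. None of these passed the correction.

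Assembly factors of the other respiratory complexes, 9 of 28 measured, held the listed gene with an unadjusted p under 0.05 in H3K27me3. ACAD9, which is needed to assemble complex I, read 0.56, 0.32 and 0.03 in SF1, SF4 and SF5, against -0.99, -0.49 and -0.91 in HF2, HF3 and HF5. The difference of 1.10 had groups that did not overlap (limma, adjusted p = 1.00). Its input signal was lower by 0.64 in subfertile bulls, while that of TIMM44, named above for H3K4me2, was higher by 0.73. Listed genes went both ways in input. The input is part of the ratio by which ACAD9 and TIMM44 were named, so nothing is read from these values. In H3K4me2 ACAD9 differed by 1.25 and NDUFAF2, another complex I assembly factor, by 0.87, both with overlapping groups.

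**Figure D5:**
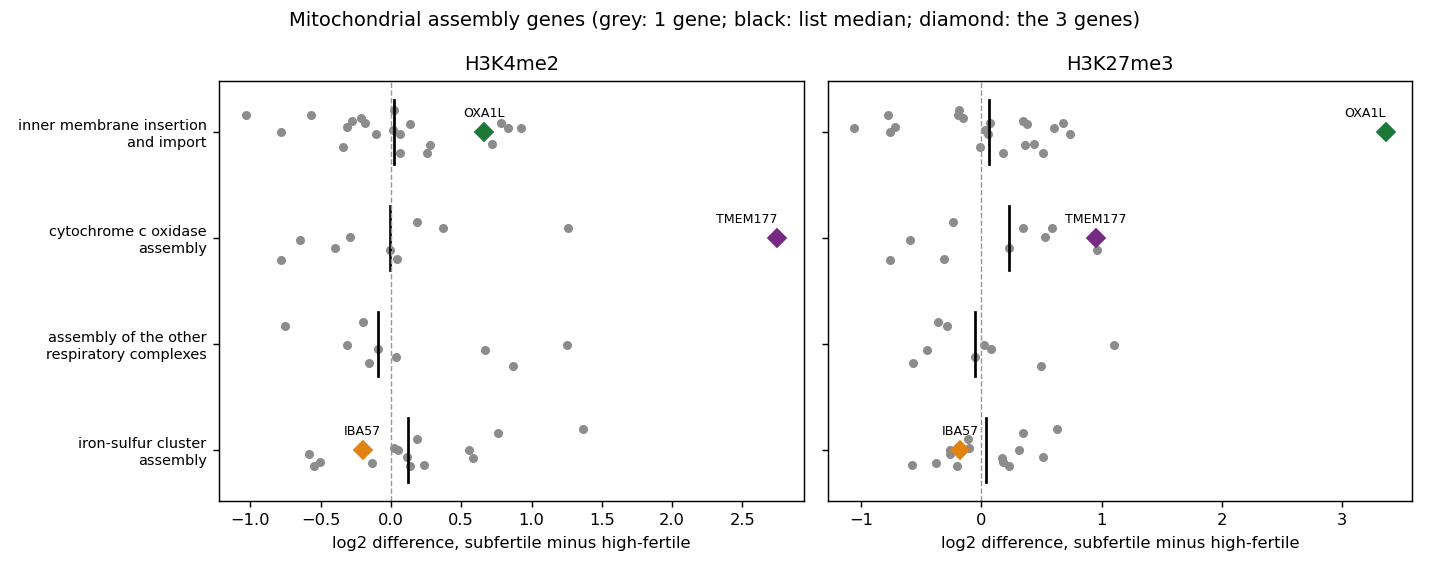
Difference between subfertile and high-fertile bulls, log2 scale, for measured genes of 4 mitochondrial assembly lists; a grey point is 1 gene, a black line the list median, and diamonds are OXA1L, TMEM177 and IBA57 in their own lists. List medians lie between -0.09 and 0.23, and OXA1L in H3K27me3 and TMEM177 in H3K4me2 are drawn at the values that chose them.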

How the data were processed

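The authors' scanner software, Agilent Feature Extraction 10.7.3.1 per the file headers and 10.7 per the submitters' processing notes, gave an intensity for each spot in each colour after background subtraction and dye normalization inside the array. The deposited log10 ratio and quality flags come from the same step. Per the labels' protocols, cross-linked chromatin was cut with micrococcal nuclease, and DNA was amplified by linker-mediated PCR, which can unbalance sites, and labelled. The deposited value table holds log2 ratios made by the authors for 177439 probes by a method not given in the sources used here, with column medians from -0.13 to 0.1.

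The values used here were log2 ratios of processed Cy5 over processed Cy3 signal, and each colour alone. Control spots (3440) were removed, and 177372 of the 177440 probes passed a filter for input signal well above background on 6 or more of the 12 arrays; outlier spots, 13 to 546 per array, were set missing. Arrays were centred on their median, and kept probes, 2 or more, were averaged per gene. Groups were compared with limma 3.58.1 in R 4.3.3 (two-sided, Benjamini-Hochberg over 6805 genes, threshold 0.05). The number of arrays limits the precision: in the median gene the half-width of the 95% confidence interval of the log2 difference was 1.20 for H3K4me2 and 1.10 for H3K27me3. The p-values measure the spread between 3 bulls per group.

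The labels tie both arrays of a number and group to 1 bull. Across genes, their deviations from the group means correlated at 0.32 to 0.75, against -0.50 to 0.18 for arrays of different bulls. Deviations from a mean of 3 bulls sum to 0, which pulls the values between bulls of 1 group down. Arrays of a bull also share slide and input DNA, so these correlations cannot establish which animal an array came from. Bull number 5 of each group is a different animal, so the fertility comparison has no pairs. The genes and the lists were chosen with earlier results of these data known. Named beside the 3 genes were the 3 with the highest r for each, the 2 of smallest unadjusted p per list and mark, and neighbours within 10 kb, of which 1 result is not reported here; the COX18, GINS1 and HSPA12B differences were picked for mention after being seen. The alternatives tried are given in the closing section.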

Additional observations from a re-analysis of the deposited data

How the results depend on the processing

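limma called 0 genes in each of the 7 comparisons and under each alternative run; the counts at an unadjusted p under 0.05 were 198 in H3K4me2, 277 in H3K27me3, 241 in input, 119 and 271 in the H3K4me2 and H3K27me3 ChIP signals, 41 for the step between marks and 45 for its difference between groups. When every bull's input was replaced by the average over the 6 bulls, the H3K4me2 difference of OXA1L turned to -0.82 and the H3K27me3 difference of TMEM177 to -0.13, while OXA1L in H3K27me3 was 1.96 and TMEM177 in H3K4me2 1.81; the own input has no part in these values by construction. With any 1 bull left out, OXA1L lay between 3.13 and 3.83 in H3K27me3 and between 0.03 and 1.52 in H3K4me2, TMEM177 between 1.97 and 3.23 in H3K4me2 and between 0.20 and 1.63 in H3K27me3, and IBA57 between -1.36 and 1.05 in H3K4me2 and between -1.28 and 0.87 in H3K27me3; the sign of IBA57 turned without HF3, SF4 or SF5. Its step between marks lay between 0.68 and 0.92. List medians moved as well: in H3K4me2 that of the import list, 0.02, was -0.16 under within-array loess and -0.19 with the deposited table, and that of the cytochrome c oxidase list, 0.00, was -0.24 with the averaged input. Within slide 4 the H3K27me3 medians were 0.40 (import), 0.60 (cytochrome c oxidase) and 0.26 (iron-sulfur), against 0.06, 0.23 and 0.03; the iron-sulfur median was -0.15 without SF1 and 0.26 without SF4, and that of cytochrome c oxidase -0.02 with the averaged input. The cause was not tested. With bull as a replicate block, 0 genes were called for the step between marks and for its difference between groups, as without it, and the unadjusted counts were 260 and 246. Slide as a random block could not be estimated over the 6 arrays of 1 mark and was not run there; the fit over all 12 arrays was chosen after seeing the data. In the median gene, the 95% confidence interval reached 1.20 log2 units to either side in H3K4me2 and 1.10 in H3K27me3. With 3 bulls per group, these widths are for 1 gene before correction over 6805 genes. As 0 genes were called, differences above these widths did not pass the correction either.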
